A study of Caenorhabditis elegans with 64 samples.

Results

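The *mutator* complex genes of *Caenorhabditis elegans* are the 9 genes *mut-16*, *mut-2* (also called *rde-3*), *mut-7*, *mut-8* (also called *rde-2*), *mut-14*, *mut-15*, *rde-8*, *nyn-1* and *nyn-2*. They were taken by name, for the proteins they encode and not for any measured value, and they are 9 of the 31106 genes with small RNA values and of the 45904 names with mRNA values in the series. All 9 were found in every table, and all 9 passed the count minimum of every test below. The complex sits at the edge of germ granules beside nuclear pores, where RNA-dependent RNA polymerases copy targeted mRNAs into short antisense RNAs called 22G-siRNAs, which Argonaute proteins then load. MUT-16 is the scaffold that brings the other proteins together, MUT-2 is a nucleotidyltransferase that adds nucleotides to RNA 3′ ends, MUT-7 is a 3′ to 5′ exoribonuclease that works with its partner MUT-8, MUT-14 is a DEAD-box RNA helicase, and RDE-8, NYN-1 and NYN-2 belong to a family of NYN-domain endoribonucleases. MUT-15 has no domain of known function.

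The libraries compare *simr-1* mutants (strain USC863, allele *cmp36*) with wild-type N2 animals. SIMR-1 is a Tudor domain protein that was found through its association with MUT-16. Both strains were raised at 20°C or kept at 25°C, a mild heat stress, for 1, 2, 7 or 10 generations, and day 1 adults were harvested whole, so every value mixes germline and somatic tissue. These 10 groups have 2 small RNA libraries and 3 mRNA libraries each, and at 20°C there are 14 more small RNA libraries, 1 per genotype. These are the complex mutants *mut-16(pk710)*, *rde-8(tm2252)* and the double mutant of *nyn-2(tm4844)* and *nyn-1(tm5004)*, the mutants *wago-1(tm1414)*, *rsd-2(pk3307)*, *math-33(ok2974)*, *hpo-40(cmp46)*, *hgo-1(tm4989)*, F37C4.5(ok3454), C33G3.6(cmp44) and Y57G11C.3(cmp47), a double mutant of *hpo-40(cmp46)* and *simr-1(cmp36)*, *simr-1(cmp36)* once more and wild-type N2 once more. Each mutated gene is represented by 1 allele, and each genotype by 1 strain. All labels give day 1 adults, but the study describes its *math-33* animals as slow to grow and out of synchrony. No label says that libraries of a group came from separate cultures, so p-values measure only the spread between these libraries.

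Small RNA levels are reads counted on a gene, as a rate over the library's genome-mapped reads (RPM, reads per 1000000), in both strand orientations together. mRNA levels are counts per 1000000 scaled by the trimmed mean of M-values over all 30 libraries (CPM). The replicated small RNA libraries held 2835252 to 12893224 counts on genes and the mRNA libraries 8055126 to 38633453. Between 41.1% and 69.4% of mapped small RNA reads fell on genes, with the lowest shares in wild-type animals of generations 1 and 2. As a check of the labels, *simr-1* mRNA stood at 6.86 to 26.3 CPM in the 15 *simr-1* libraries and at 48.9 to 218 CPM in the 15 wild-type libraries. A log2 change is given for the *simr-1* mutant over wild-type, or for the later or warmer group over the earlier or cooler one, with its standard error after the ± sign. It comes from edgeR's quasi-likelihood test on the compared libraries alone, p-values were adjusted by Benjamini and Hochberg's method over all genes tested, and a gene passed at an adjusted p of at most 0.05.

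The genes lie on 4 chromosomes. In the WS258 coordinates of the deposited tables, *mut-16* (B0379.3) is at I:10080159-10085777 on the plus strand, *mut-2* (K04F10.6) at I:6356614-6358410 on the minus strand, *mut-8* (F21C3.4) at I:7280552-7282871 on the minus strand and *nyn-2* (Y87G2A.7) at I:13572379-13575805 on the plus strand. *mut-7* (ZK1098.8) is at III:9539031-9542380 and *rde-8* (ZC477.5) and *nyn-1* (T23G4.3) are at IV:7101375-7103261 and IV:13685076-13687016, all on the minus strand. *mut-14* (C14C11.6) is at V:5658713-5660704 on the minus strand and *mut-15* (T01C3.8) at V:15002543-15005055 on the plus strand. 

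The counting itself limits what can be told apart at some of these loci. Exons of *mut-16* overlap exons of *scpl-1* and those of *mut-2* overlap those of *bli-4*, in both cases on the other strand. Because small RNA reads were counted without strand, reads in those overlaps cannot be told apart, while the mRNA libraries were made with a kit that keeps strand.

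One of the 9 genes has a close copy in the genome, which bears on how its short reads were placed. Of 1643 stretches of 22 nt within exons of *mut-14*, 720 (43.8%) occur more than once in the genome, and 719 of these lie in ZC317.1, an annotated pseudogene on the same chromosome. The corresponding count is 7 of 3132 for *mut-16*, 6 each for *nyn-1* and *nyn-2*, which share them with each other, and 0 for *mut-2*, *mut-7*, *mut-8*, *mut-15* and *rde-8*. The paralog *smut-1*, a helicase that acts beside MUT-14, shares no stretch of 22 nt with it. The 60 nt windows below, from the coding strand in the RefSeq WBcel235 genome, set *mut-14* beside ZC317.1 and *smut-1*. They lie at V:5659174-5659233 (minus strand) in *mut-14*, at V:5472890-5472949 (plus strand) in ZC317.1 and at V:6098516-6098575 (plus strand) in *smut-1*. Capitals mark bases that are not as in *mut-14*, of which there are 3 in ZC317.1 and 12 in *smut-1*. Within these windows *mut-14* and ZC317.1 share no stretch of 22 nt, so the stretches they share lie elsewhere.
mut-14: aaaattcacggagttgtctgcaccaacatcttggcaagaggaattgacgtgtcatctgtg
ZC317.1: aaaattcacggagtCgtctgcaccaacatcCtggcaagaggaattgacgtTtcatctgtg
smut-1: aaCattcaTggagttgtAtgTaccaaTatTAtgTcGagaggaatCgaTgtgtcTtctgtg

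Per kilobase of exon, mRNA levels of the 9 genes stayed within the same order of magnitude at 20°C. At 20°C in *simr-1* mutants they stood in the order *rde-8* (95.2 CPM per kb), *mut-2* (91.5), *nyn-2* (55.2), *mut-8* (51.8), *mut-14* (46.5), *mut-7* (43.2), *mut-15* (27.2), *nyn-1* (26.4) and *mut-16* (21.5), and in wild-type animals in the order *rde-8* (76.7 CPM per kb), *mut-2* (76.6), *mut-7* (53.5), *mut-8* (52.3), *mut-14* (47.3), *nyn-2* (46.3), *mut-15* (31.3), *mut-16* (30.9) and *nyn-1* (28.6). Neighbours in the wild-type order did not differ beyond their spread (1 SD of either gene, n = 3) except at the steps below *mut-2*, *mut-8* and *nyn-2*, and the scaffold gene was among the 3 lowest in both strains. Small RNA levels per kilobase were spread more widely, and in *simr-1* mutants and wild-type animals at 20°C they fell in the same order. In wild-type animals *mut-14* had 189 RPM per kb, *mut-7* 92.6, *nyn-1* 82.7, *mut-15* 66.8, *mut-8* 47.9, *mut-16* 44.8, *nyn-2* 23.2, *rde-8* 21.8 and *mut-2* 14.6. Of these, *nyn-2* and *rde-8* did not differ beyond their spread (SD, n = 2), while each other step did, and in *simr-1* mutants *rde-8* (19.8 RPM per kb) and *mut-2* (19.2) did not either. *rde-8* and *mut-2*, the genes with the most mRNA per kilobase, were the 2 with the fewest small RNAs per kilobase. Across the 9 genes the Pearson correlation of the log2 levels of mRNA and small RNA lay between -0.41 and -0.73 in the 10 groups, a description over genes that share their libraries.

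In the first generation at 25°C, small RNAs on the *mutator* genes were higher in *simr-1* mutants than in wild-type animals, while at 20°C the strains stood close together. Summed over the 9 genes, they measured 1183 and 1139 RPM in generation 1 *simr-1* mutants and 393 and 385 RPM in wild-type animals, against 1283 and 1282 RPM in *simr-1* mutants and 1212 and 1202 RPM in wild-type animals at 20°C. Of the 9 genes, 8 rose in *simr-1* mutants in generation 1 and none fell, by log2 changes of 0.35 to 1.33, and *rde-8* did not pass (0.06). Over all 14341 genes tested 69.7% passed and 35.7% passed upward, and the median log2 change was 1.05 over the 9 genes and -0.10 over all genes. Scaled to mapped reads instead, the median over all genes was 0.37 in generation 1 and 0.32 in generation 2. In generation 2, 5 genes rose and 1 fell, where 49.1% of all genes passed. In generation 7, 4 rose and 1 fell (46.6% of all genes), and in generation 10, 6 rose and 1 fell (59.5% of all genes). *mut-7*, *mut-8*, *mut-14* and *nyn-1* rose in each of the 4 generations at 25°C. At 20°C 1 gene rose and 1 fell, where 34.3% of all genes passed, both by less than 0.15 on the log2 scale, and neither passed with DESeq2.

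**Figure D1:**
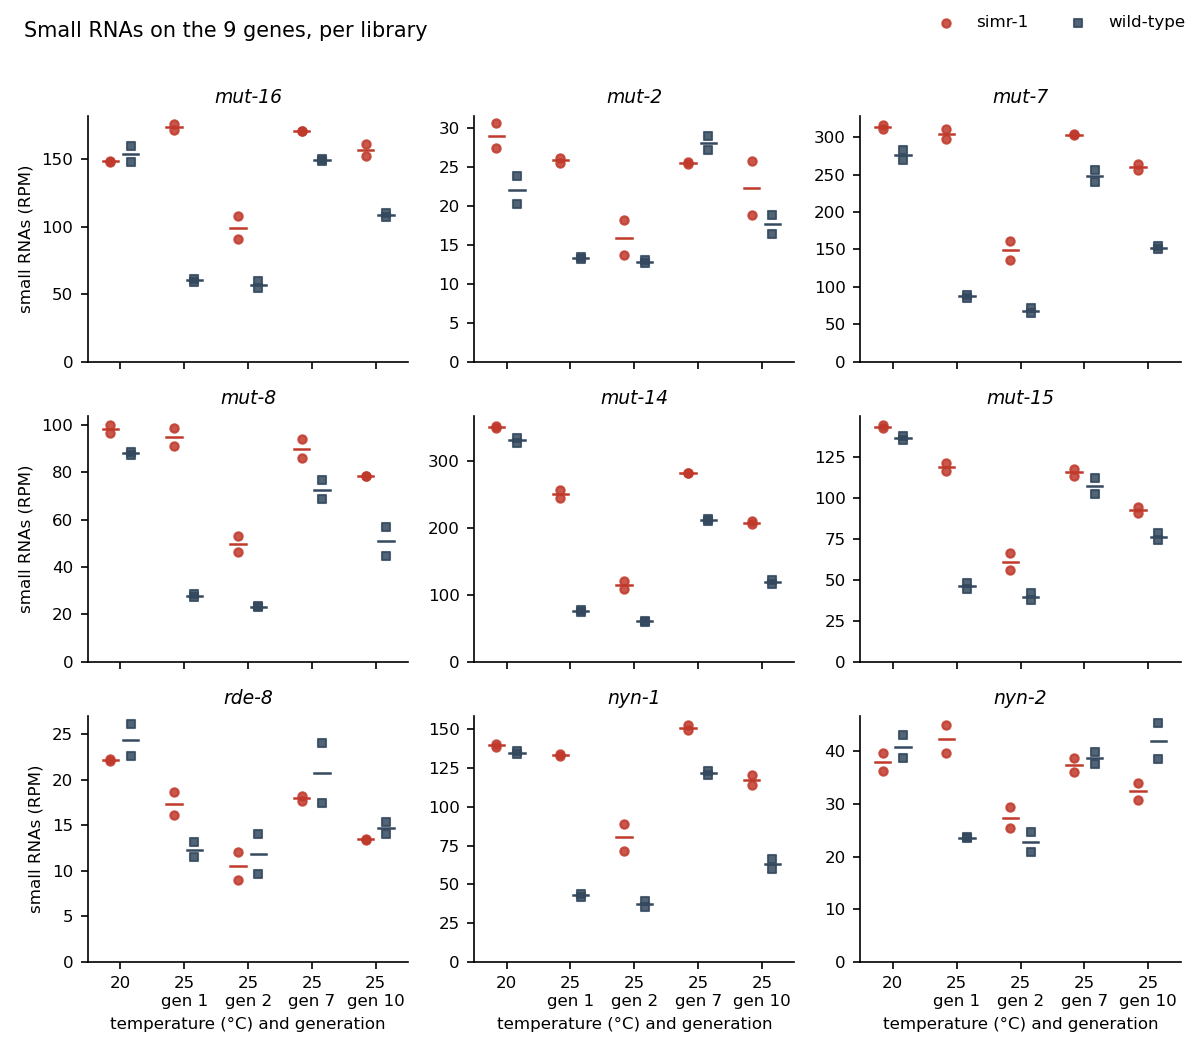
Small RNA level of each *mutator* complex gene (RPM, 1 panel per gene with its own axis from 0) in each of the 20 replicated libraries, with 1 point per library, a bar at the group mean and *simr-1* mutants left of wild-type animals in each condition. In generations 1 and 2 at 25°C the wild-type points sit lowest for *mut-7*, *mut-8*, *mut-14* and *nyn-1*, while *rde-8*, *mut-2* and *nyn-2* stay at low levels throughout.

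mRNA of the *mutator* genes changed in both directions. The summed mRNA of the 9 genes was 815, 809 and 834 CPM in *simr-1* mutants and 866, 845 and 803 CPM in wild-type animals at 20°C, and 860.2, 819 and 824 CPM in *simr-1* mutants and 649, 653 and 642 CPM in wild-type animals in generation 1 at 25°C. At 20°C *mut-16*, *mut-7* and *mut-15* fell and *mut-2*, *rde-8* and *nyn-2* rose in *simr-1* mutants, where 22.1% of all genes passed. In generation 1, 5 genes rose (*nyn-2*, *mut-2*, *mut-8*, *rde-8* and *mut-14*) and *nyn-1* fell, where 68.5% of all genes passed, with a median log2 change of 0.40 over the 9 genes and -0.15 over all genes. In generation 2, *mut-16*, *mut-15* and *mut-7* fell and *nyn-2* and *rde-8* rose (42.8% of all genes passed). In generation 7 *nyn-1* fell and no other gene of the complex passed (27.1% of all genes), while with the replicate block *mut-7* and *rde-8* fell as well. In generation 10, 5 genes rose and none fell (46.2% of all genes passed and 20.9% passed upward). No gene of the complex reached a 2-fold change of mRNA in any of these 5 comparisons, where 3.10% of all genes did at 20°C and 29.7%, 17.7%, 9.33% and 11.2% did in generations 1, 2, 7 and 10. The count at 20°C moved with single libraries, since of the 9 genes 3 passed without the first and 2 without the third *simr-1* library, and 4 or 5 without each of the other libraries in turn. In generations 1 and 7 the count was near or below the share over all genes.

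**Figure D2:**
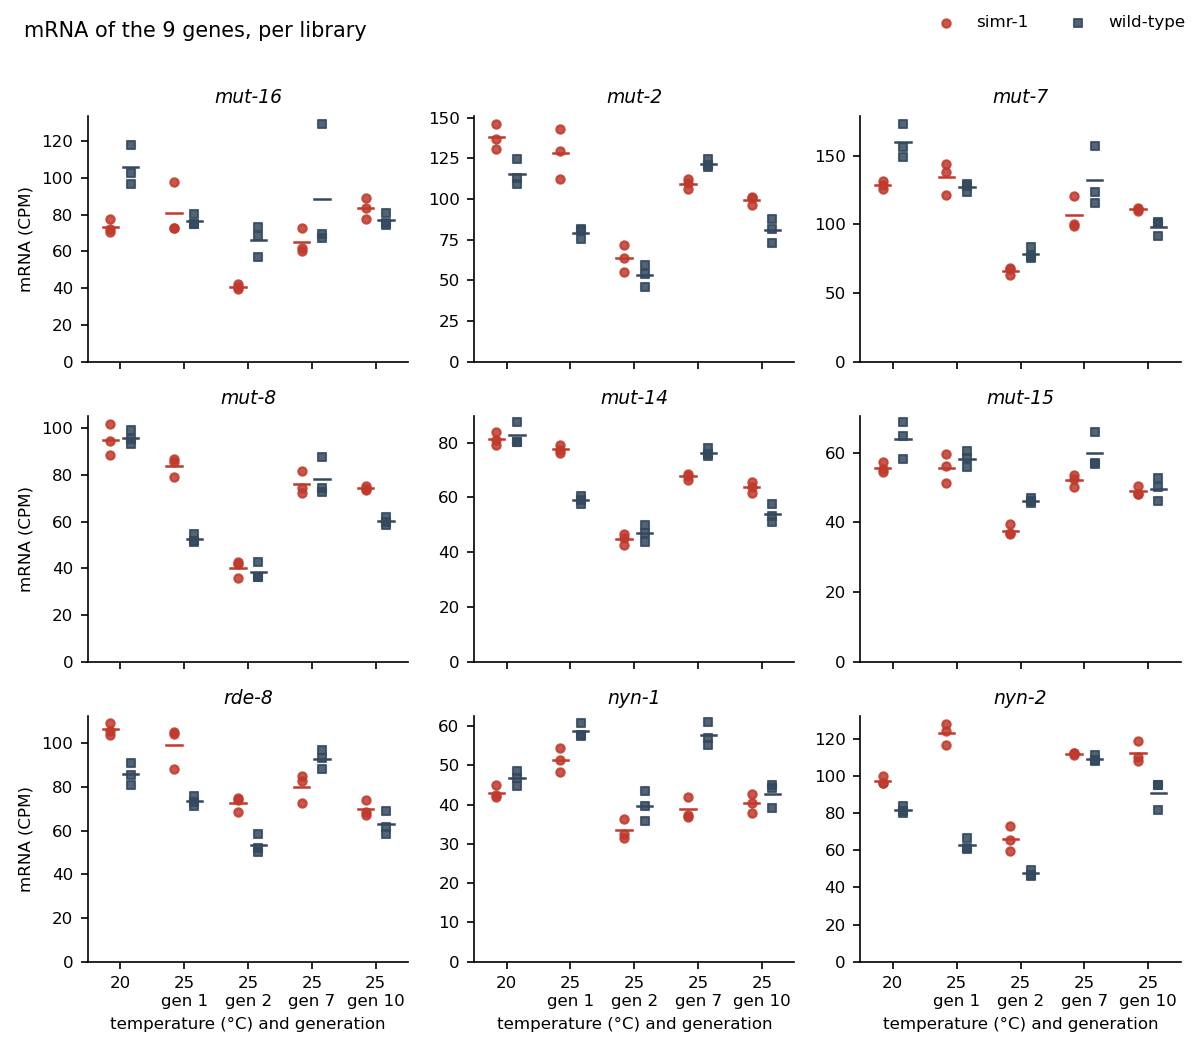
mRNA level of each *mutator* complex gene (CPM, 1 panel per gene with its own axis from 0) in each of the 30 libraries, with 1 point per library, a bar at the group mean and *simr-1* mutants left of wild-type animals in each condition. The third wild-type library of generation 7 is the highest of its group for *mut-16*, at 129 CPM against 67.3 and 69.2 CPM in the other two.

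*mut-16* encodes the scaffold. In *simr-1* mutants, *mut-16* small RNAs measured 148 and 148 RPM at 20°C, and at 25°C 176 and 171 in generation 1, 108 and 90.5 in generation 2, 171 and 171 in generation 7 and 153 and 161 in generation 10. In wild-type animals, *mut-16* small RNAs measured 148 and 159 RPM at 20°C, and at 25°C 61.5 and 59.0 in generation 1, 59.3 and 54.7 in generation 2, 148 and 149.8 in generation 7 and 107 and 110.2 in generation 10. Outside 20°C the *simr-1* libraries were the higher ones in every generation, with no overlap. Its small RNAs rose in *simr-1* mutants in generation 1 by 1.05 ± 0.06 (adjusted p = 3.7e-08), in generation 2 by 0.43 ± 0.12 (adjusted p = 0.0072) and in generation 10 by 0.47 ± 0.07 (adjusted p = 2.8e-04), and the log2 change was 0.11 ± 0.05 (adjusted p = 0.0926) in generation 7. At 20°C they fell, at -0.13 ± 0.05 (adjusted p = 0.0368), but passed in 2 of the 4 fits that each left out 1 library. In *simr-1* mutants, *mut-16* mRNA measured 77.4, 70.8 and 72.4 CPM at 20°C, and at 25°C 72.5, 97.6 and 73.0 in generation 1, 42.1, 39.3 and 40.6 in generation 2, 62.0, 60.1 and 73.0 in generation 7 and 77.5, 83.7 and 89.3 in generation 10. In wild-type animals, *mut-16* mRNA measured 118, 103 and 96.8 CPM at 20°C, and at 25°C 80.3, 75.1 and 74.8 in generation 1, 68.5, 57.1 and 73.1 in generation 2, 67.3, 69.2 and 129 in generation 7 and 74.4, 75.5 and 81.2 in generation 10. At 20°C and in generation 2 all *simr-1* libraries lay below all wild-type libraries. *mut-16* mRNA fell in *simr-1* mutants at 20°C by a log2 change of -0.59 ± 0.08 (adjusted p = 3.2e-04) and in generation 2 by -0.71 ± 0.10 (adjusted p = 3.6e-04), and both calls held whichever library was left out. In generation 1 the log2 change was 0.08 ± 0.09 (adjusted p = 0.431) and in generation 10 it was 0.14 ± 0.06 (adjusted p = 0.0777). In generation 7 it was -0.39 ± 0.24 (adjusted p = 0.261), but this rested on the third wild-type library, without which it was 0.00. Same-numbered libraries of the 2 strains deviated together in generations 7 and 10, and in a fit with replicate number as a block *mut-16* stood at an adjusted p of 0.0513 in generation 7 and rose in generation 10 (log2 change 0.14, adjusted p = 0.0381).

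The third wild-type library of generation 7, the second *simr-1* library of generation 1 and the third *simr-1* library of generation 7 were picked out, after their values were seen, as high for *mut-16* within their groups. In these, *mut-16* stood above its group mean by log2 0.61, 0.28 and 0.17, more than 99.6%, 99.5% and 95.5% of the 7825 genes compared. Over all those genes the SDs of their deviations were 0.16, 0.107 and 0.129, where the other 27 libraries had 0.068 to 0.199. Each was the largest SD of its own group. The other libraries of these groups had 0.102 and 0.091, 0.08 and 0.105, and 0.068 and 0.086. The deviations of the 3 libraries over those genes correlated with each other at 0.31 to 0.65, and what they share was not tested. Without the 2 of generation 7, *mut-7*, *mut-14*, *rde-8* and *nyn-1* fell and *nyn-2* rose in that generation, where with them *nyn-1* alone passed.

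*mut-2* encodes the nucleotidyltransferase and had the fewest small RNAs per kilobase at 20°C, while *rde-8* had the fewest in *simr-1* mutants at 25°C. In *simr-1* mutants, *mut-2* small RNAs measured 27.4 and 30.7 RPM at 20°C, and at 25°C 26.2 and 25.5 in generation 1, 18.2 and 13.7 in generation 2, 25.4 and 25.6 in generation 7 and 18.9 and 25.8 in generation 10. In wild-type animals, *mut-2* small RNAs measured 23.9 and 20.2 RPM at 20°C, and at 25°C 13.4 and 13.2 in generation 1, 12.6 and 13.01 in generation 2, 27.1 and 28.96 in generation 7 and 16.4 and 18.8 in generation 10. The *simr-1* libraries were the higher ones in every condition but generation 7, where they were the lower ones, and the groups did not overlap, although they came close in generation 10. Its small RNAs rose in generation 1 by 0.47 ± 0.10 (adjusted p = 0.00156) and fell in generation 7 by a log2 change of -0.23 ± 0.09 (adjusted p = 0.0463), which did not hold its sign when all 10 groups shared one fit (0.04). In *simr-1* mutants, *mut-2* mRNA measured 131, 137 and 146 CPM at 20°C, and at 25°C 143, 112 and 129.9 in generation 1, 71.9, 55.4 and 63.9 in generation 2, 112, 110.2 and 106 in generation 7 and 101, 96.3 and 101 in generation 10. In wild-type animals, *mut-2* mRNA measured 109.5, 124 and 113 CPM at 20°C, and at 25°C 75.6, 81.0 and 81.3 in generation 1, 59.5, 54.1 and 46.1 in generation 2, 121, 119.9 and 125 in generation 7 and 81.7, 87.7 and 73.2 in generation 10. At 20°C and in generations 1 and 10 every *simr-1* library exceeded every wild-type library, and in generation 7 every one lay below. *mut-2* mRNA rose in *simr-1* mutants by 0.71 ± 0.07 (adjusted p = 4.8e-08) in generation 1 and by 0.32 ± 0.07 (adjusted p = 0.00101) in generation 10. Its rise at 20°C (0.19 ± 0.06, adjusted p = 0.0422) was kept in 1 of the 6 fits that each left out 1 library.

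*mut-7* encodes the exoribonuclease. In *simr-1* mutants, *mut-7* small RNAs measured 316 and 311 RPM at 20°C, and at 25°C 311 and 298 in generation 1, 161 and 136 in generation 2, 304 and 304 in generation 7 and 265 and 257 in generation 10. In wild-type animals, *mut-7* small RNAs measured 283 and 269.9 RPM at 20°C, and at 25°C 89.3 and 85.0 in generation 1, 71.2 and 64.8 in generation 2, 240.1 and 257 in generation 7 and 150.3 and 154 in generation 10. The *simr-1* libraries were higher than the wild-type libraries in all 5 conditions, by the most in generation 1 and by the least at 20°C. *mut-7* small RNAs had the largest log2 change of the 9 genes in generation 1, 1.33 ± 0.05 (adjusted p = 2.4e-09), and rose in generation 2 by 0.76 ± 0.11 (adjusted p = 1.0e-04), in generation 7 by 0.20 ± 0.05 (adjusted p = 0.00687) and in generation 10 by 0.71 ± 0.06 (adjusted p = 4.8e-06). At 20°C the change was 0.10 ± 0.04 (adjusted p = 0.0464) and passed in 1 of the 4 fits that left out a library. In *simr-1* mutants, *mut-7* mRNA measured 132, 129 and 126 CPM at 20°C, and at 25°C 138, 144 and 121 in generation 1, 67.7, 63.3 and 68.1 in generation 2, 98.6, 101 and 121 in generation 7 and 109.7, 111 and 112 in generation 10. In wild-type animals, *mut-7* mRNA measured 174, 156 and 149 CPM at 20°C, and at 25°C 128, 129 and 124 in generation 1, 77.3, 75.7 and 83.2 in generation 2, 116, 124 and 157 in generation 7 and 101, 102 and 91.8 in generation 10. The mRNA groups overlapped in generations 1 and 7, and the *simr-1* libraries were the lower ones at 20°C and in generation 2 and the higher ones in generation 10. *mut-7* mRNA fell in *simr-1* mutants at 20°C by a log2 change of -0.38 ± 0.07 (adjusted p = 0.0025), held whichever library was left out, and in generation 2 by -0.25 ± 0.08 (adjusted p = 0.0353), held in 1 of 6 such fits. It rose in generation 10 by 0.20 ± 0.06 (adjusted p = 0.0107). In generation 7 the log2 change was -0.25 ± 0.14 (adjusted p = 0.202), and it passed as a fall with the replicate block (-0.24, adjusted p = 0.00294).

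*mut-8* encodes the partner of MUT-7. In *simr-1* mutants, *mut-8* small RNAs measured 100.0 and 96.6 RPM at 20°C, and at 25°C 98.9 and 91.0 in generation 1, 53.2 and 46.2 in generation 2, 86.2 and 94.0 in generation 7 and 78.6 and 78.5 in generation 10. In wild-type animals, *mut-8* small RNAs measured 88.7 and 87.4 RPM at 20°C, and at 25°C 28.4 and 27.2 in generation 1, 23.2 and 23.3 in generation 2, 76.7 and 68.8 in generation 7 and 44.8 and 56.8 in generation 10. Its small RNAs followed those of *mut-7*, with no overlap in any condition and the lowest levels in wild-type animals of generations 1 and 2. Over the 10 groups their log2 levels correlated with those of *mut-7* at 0.997, the closest pair among the 9 genes. They rose in *simr-1* mutants by 1.29 ± 0.08 (adjusted p = 5.7e-08) in generation 1, 0.72 ± 0.13 (adjusted p = 3.9e-04) in generation 2, 0.22 ± 0.06 (adjusted p = 0.00602) in generation 7 and 0.57 ± 0.09 (adjusted p = 2.4e-04) in generation 10, and at 20°C the log2 change was 0.07 ± 0.05 (adjusted p = 0.279). In *simr-1* mutants, *mut-8* mRNA measured 94.8, 88.7 and 102 CPM at 20°C, and at 25°C 86.9, 85.5 and 79.4 in generation 1, 42.8, 35.9 and 41.7 in generation 2, 74.4, 72.2 and 81.8 in generation 7 and 75.4, 74.2 and 73.6 in generation 10. In wild-type animals, *mut-8* mRNA measured 99.4, 95.5 and 93.2 CPM at 20°C, and at 25°C 51.8, 51.1 and 54.9 in generation 1, 42.8, 36.1 and 36.1 in generation 2, 72.6, 74.7 and 87.8 in generation 7 and 58.8, 62.0 and 60.1 in generation 10. *mut-8* mRNA was higher in every *simr-1* library than in every wild-type library in generations 1 and 10 and overlapped in the other conditions. It rose by 0.68 ± 0.07 (adjusted p = 1.7e-08) in generation 1 and by 0.32 ± 0.06 (adjusted p = 2.5e-04) in generation 10.

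*mut-14* encodes the helicase and had the most small RNAs per kilobase in all 10 groups. In *simr-1* mutants, *mut-14* small RNAs measured 349 and 352 RPM at 20°C, and at 25°C 256 and 244 in generation 1, 121 and 109 in generation 2, 282 and 282 in generation 7 and 205 and 209 in generation 10. In wild-type animals, *mut-14* small RNAs measured 334 and 326 RPM at 20°C, and at 25°C 77.0 and 74.1 in generation 1, 59.7 and 60.6 in generation 2, 210.4 and 213 in generation 7 and 116 and 122 in generation 10. The *simr-1* libraries lay above the wild-type libraries in all 5 conditions, narrowly at 20°C. Its small RNAs rose by 1.25 ± 0.06 (adjusted p = 5.2e-09) in generation 1, 0.56 ± 0.12 (adjusted p = 0.00134) in generation 2, 0.32 ± 0.05 (adjusted p = 5.2e-05) in generation 7 and 0.74 ± 0.07 (adjusted p = 5.9e-06) in generation 10, and the log2 change at 20°C was 0.00 ± 0.03 (adjusted p = 0.996). The pseudogene ZC317.1 carried small RNA counts too, with 77.8 and 73.3 RPM in *simr-1* mutants and 103 and 93.9 RPM in wild-type animals at 20°C and 48.4 and 47.0 RPM in *simr-1* mutants and 17.03 and 22.9 RPM in wild-type animals in generation 1. When the counts of both loci were added, the 25°C calls of *mut-14* held and at 20°C the sum fell in *simr-1* mutants (log2 change -0.10, adjusted p = 0.0358). In *simr-1* mutants, *mut-14* mRNA measured 83.8, 81.1 and 79.0 CPM at 20°C, and at 25°C 77.4, 76.1 and 79.2 in generation 1, 46.5, 45.3 and 42.5 in generation 2, 67.8, 66.5 and 68.7 in generation 7 and 61.6, 65.8 and 63.7 in generation 10. In wild-type animals, *mut-14* mRNA measured 87.5, 80.3 and 80.2 CPM at 20°C, and at 25°C 59.2, 60.6 and 57.7 in generation 1, 43.7, 47.0 and 49.8 in generation 2, 78.1, 75.2 and 75.7 in generation 7 and 50.9, 57.5 and 53.3 in generation 10. The mRNA groups were apart in generations 1 and 10, with *simr-1* above wild-type, and in generation 7, with *simr-1* below. *mut-14* mRNA rose by 0.40 ± 0.06 (adjusted p = 8.8e-06) in generation 1 and 0.26 ± 0.07 (adjusted p = 0.00395) in generation 10, and ZC317.1 mRNA never exceeded 1.64 CPM in any library.

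*mut-15* encodes the component with no known domain. In *simr-1* mutants, *mut-15* small RNAs measured 142 and 144 RPM at 20°C, and at 25°C 121 and 116 in generation 1, 66.5 and 55.6 in generation 2, 118 and 113 in generation 7 and 94.6 and 91.0 in generation 10. In wild-type animals, *mut-15* small RNAs measured 135 and 138 RPM at 20°C, and at 25°C 44.2 and 48.0 in generation 1, 41.9 and 37.3 in generation 2, 112 and 102 in generation 7 and 74.1 and 78.3 in generation 10. The *simr-1* libraries lay above the wild-type libraries in all 5 conditions, in generation 1 by less than for *mut-7*, *mut-8* and *mut-14*. Its small RNAs rose by 0.88 ± 0.07 (adjusted p = 7.5e-07) in generation 1 and by 0.22 ± 0.07 (adjusted p = 0.0152) in generation 10. In *simr-1* mutants, *mut-15* mRNA measured 54.4, 55.3 and 57.1 CPM at 20°C, and at 25°C 59.6, 51.2 and 56.1 in generation 1, 39.4, 36.8 and 36.5 in generation 2, 52.4, 50.2 and 53.6 in generation 7 and 48.0, 48.0 and 50.5 in generation 10. In wild-type animals, *mut-15* mRNA measured 68.8, 64.7 and 58.3 CPM at 20°C, and at 25°C 58.5, 60.4 and 55.7 in generation 1, 45.9, 45.5 and 46.9 in generation 2, 56.7, 57 and 66.0 in generation 7 and 52.6, 46.1 and 50.1 in generation 10. *mut-15* mRNA was lower in every *simr-1* library than in every wild-type library at 20°C, in generation 2 and in generation 7. It fell by a log2 change of -0.27 ± 0.07 (adjusted p = 0.0153) at 20°C, kept in 4 of the 6 fits that left out a library, and of -0.30 ± 0.08 (adjusted p = 0.014) in generation 2.

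*rde-8* encodes a NYN-domain endoribonuclease that cuts targeted mRNAs. In *simr-1* mutants, *rde-8* small RNAs measured 22.1 and 22.3 RPM at 20°C, and at 25°C 16.1 and 18.6 in generation 1, 12.1 and 8.98 in generation 2, 17.7 and 18.2 in generation 7 and 13.5 and 13.3 in generation 10. In wild-type animals, *rde-8* small RNAs measured 26.1 and 22.6 RPM at 20°C, and at 25°C 11.5 and 13.1 in generation 1, 14.0 and 9.60 in generation 2, 24.1 and 17.5 in generation 7 and 14.0 and 15.3 in generation 10. Small RNAs on *rde-8* never exceeded 26.1 RPM in these 20 libraries, and the *simr-1* libraries were the higher ones in generation 1, the lower ones at 20°C and in generation 10, and overlapped with wild-type in generations 2 and 7. The 1 comparison of the strains they passed was a fall in generation 2, -0.51 ± 0.19 (adjusted p = 0.0377). This fall depends on scaling, since the median over all genes there was -0.05 with the trimmed mean and 0.32 scaled to mapped reads. In *simr-1* mutants, *rde-8* mRNA measured 103.97, 106 and 109 CPM at 20°C, and at 25°C 104.12, 88.1 and 105 in generation 1, 74.8, 68.7 and 73.9 in generation 2, 82.7, 85.0 and 72.5 in generation 7 and 74.1, 68.5 and 67.3 in generation 10. In wild-type animals, *rde-8* mRNA measured 80.7, 90.8 and 85.7 CPM at 20°C, and at 25°C 73.0, 71.4 and 75.9 in generation 1, 58.6, 50.3 and 52.0 in generation 2, 96.7, 93.3 and 88.1 in generation 7 and 61.6, 69.2 and 58.3 in generation 10. *rde-8* mRNA was higher in every *simr-1* library than in every wild-type library at 20°C and in generations 1 and 2, and lower in generation 7. It rose by 0.25 ± 0.06 (adjusted p = 0.0109) at 20°C, 0.45 ± 0.07 (adjusted p = 1.0e-05) in generation 1 and 0.43 ± 0.09 (adjusted p = 0.00272) in generation 2. With the replicate block it fell in generation 7 (log2 change -0.15, adjusted p = 0.0394) and rose in generation 10 (0.17, adjusted p = 0.0159), where without the block it did not pass.

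*nyn-1* and *nyn-2* encode related NYN-domain proteins. In *simr-1* mutants, *nyn-1* small RNAs measured 139 and 141 RPM at 20°C, and at 25°C 132 and 134 in generation 1, 89.0 and 71.8 in generation 2, 149.6 and 153 in generation 7 and 120.3 and 114 in generation 10. In wild-type animals, *nyn-1* small RNAs measured 134 and 136 RPM at 20°C, and at 25°C 43.9 and 41.6 in generation 1, 39.1 and 35.4 in generation 2, 123 and 120.4 in generation 7 and 59.7 and 66.6 in generation 10. In every generation at 25°C *nyn-1* small RNAs were higher in the *simr-1* libraries, and at 20°C both strains stood close together. They rose by 1.17 ± 0.07 (adjusted p = 4.2e-08) in generation 1, 0.74 ± 0.12 (adjusted p = 2.3e-04) in generation 2, 0.22 ± 0.05 (adjusted p = 0.00144) in generation 7 and 0.83 ± 0.07 (adjusted p = 3.0e-06) in generation 10. In *simr-1* mutants, *nyn-1* mRNA measured 41.8, 44.9 and 42.3 CPM at 20°C, and at 25°C 54.4, 48.4 and 51.5 in generation 1, 31.5, 36.3 and 32.6 in generation 2, 36.9, 37.5 and 42.0 in generation 7 and 40.5, 37.9 and 42.6 in generation 10. In wild-type animals, *nyn-1* mRNA measured 48.7, 46.9 and 44.6 CPM at 20°C, and at 25°C 60.8, 57.7 and 57.5 in generation 1, 35.8, 39.6 and 43.6 in generation 2, 56.98, 55.1 and 61.1 in generation 7 and 44.2, 45.1 and 39.1 in generation 10. *nyn-1* mRNA was lower in all *simr-1* libraries than in all wild-type libraries in generations 1 and 7 and overlapped in the other conditions. It fell by a log2 change of -0.18 ± 0.07 (adjusted p = 0.0271) in generation 1, kept in 3 of 6 fits that left out a library and lost with DESeq2, and of -0.51 ± 0.08 (adjusted p = 0.00336) in generation 7, which held in all 6.

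In *simr-1* mutants, *nyn-2* small RNAs measured 39.7 and 36.2 RPM at 20°C, and at 25°C 44.9 and 39.8 in generation 1, 29.4 and 25.4 in generation 2, 36.2 and 38.7 in generation 7 and 34.04 and 30.7 in generation 10. In wild-type animals, *nyn-2* small RNAs measured 38.6 and 43.1 RPM at 20°C, and at 25°C 23.6 and 23.5 in generation 1, 24.7 and 20.8 in generation 2, 39.9 and 37.5 in generation 7 and 38.5 and 45.5 in generation 10. *nyn-2* small RNAs were the higher ones in *simr-1* mutants in generations 1 and 2 and the lower ones in generation 10, and overlapped at 20°C and in generation 7. They rose by 0.35 ± 0.09 (adjusted p = 0.00506) in generation 1 and fell by a log2 change of -0.43 ± 0.09 (adjusted p = 0.00199) in generation 10. In *simr-1* mutants, *nyn-2* mRNA measured 96.05, 96.2 and 99.9 CPM at 20°C, and at 25°C 124, 116 and 128 in generation 1, 73.0, 59.8 and 65.6 in generation 2, 112, 111 and 112 in generation 7 and 118.93, 108 and 110.1 in generation 10. In wild-type animals, *nyn-2* mRNA measured 80.0, 83.8 and 81.3 CPM at 20°C, and at 25°C 61.4, 66.7 and 60.7 in generation 1, 49.5, 46.7 and 46.3 in generation 2, 108, 111 and 108 in generation 7 and 94.9, 95.03 and 81.7 in generation 10. *nyn-2* mRNA was higher in every *simr-1* library than in every wild-type library in all 5 conditions. Its rise in generation 1, 0.98 ± 0.06 (adjusted p = 5.5e-11), was the largest mRNA change of the complex, and it rose by 0.48 ± 0.09 (adjusted p = 0.00201) in generation 2 and 0.33 ± 0.07 (adjusted p = 7.0e-04) in generation 10. At 20°C it rose by 0.19 ± 0.06 (adjusted p = 0.0312), kept in 1 of the 6 fits that left out a library, and in generation 7 the log2 change was 0.10 ± 0.05 (adjusted p = 0.195). Over the 10 groups the mRNA of *nyn-1* and *nyn-2* correlated at 0.20, the lowest of all pairs of the 9 genes, and their small RNAs at 0.78.

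**Figure D3:**
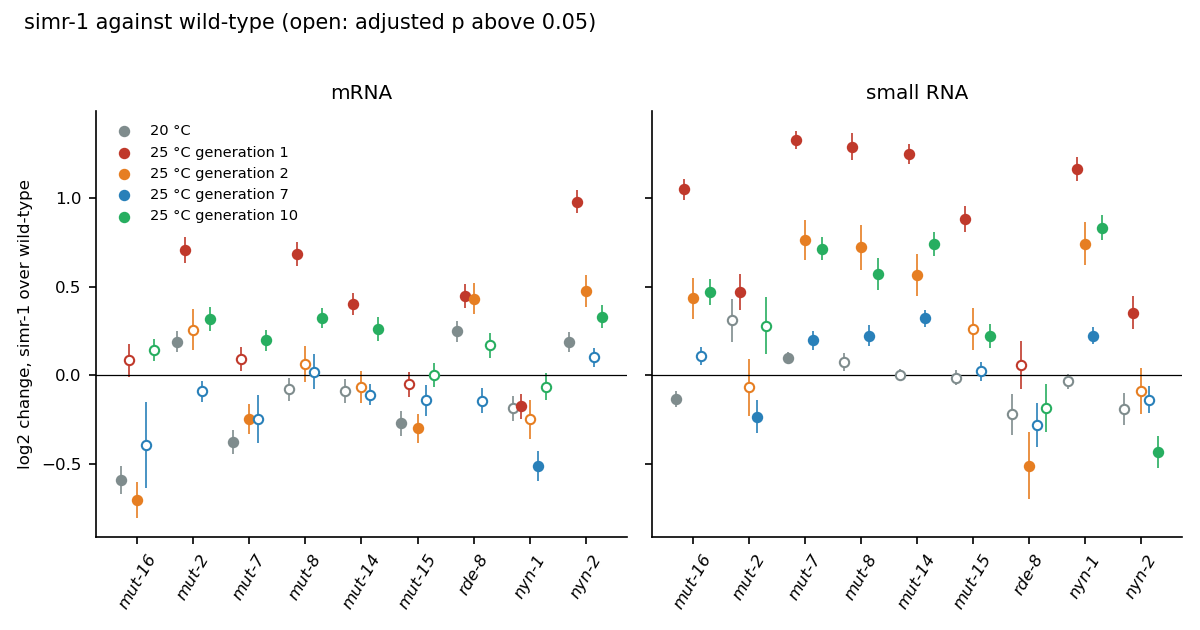
Log2 change of *simr-1* mutants over wild-type animals for each *mutator* complex gene at 20°C and in 4 generations at 25°C, for small RNA and for mRNA, with error bars of 1 standard error, filled points for changes that passed the test and open points for those that did not. Small RNA changes peak in generation 1, at 1.33 for *mut-7*, and *mut-16* mRNA is lowest at 20°C and in generation 2 (-0.59 and -0.71).

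A second comparison asks how the genes responded to the first generation at 25°C within each strain. In wild-type animals 6 of the 9 genes lost small RNAs relative to 20°C and none gained, where 61.6% of all genes passed and 29.8% passed downward. *mut-14* fell by a log2 change of -1.26 ± 0.05 (adjusted p = 9.4e-13), *mut-7* of -0.80 ± 0.06 (adjusted p = 8.1e-10), *mut-8* of -0.80 ± 0.09 (adjusted p = 3.2e-07), *nyn-1* of -0.79 ± 0.07 (adjusted p = 5.0e-08), *mut-15* of -0.70 ± 0.08 (adjusted p = 3.6e-07) and *mut-16* of -0.48 ± 0.07 (adjusted p = 1.4e-05). This comparison depends on how libraries are scaled. The median log2 change over all genes was 0.07 with the trimmed mean and -0.79 when counts were scaled to mapped reads, and on the latter scale *mut-2* (-0.72) and *nyn-2* (-0.79) passed as well, no further down than the median gene. In RPM, which is also scaled to mapped reads, all 9 genes were lower in both libraries of generation 1 than in both at 20°C. The share of all genes that were so is not given here, and the median of -0.79 applies to this scale. In *simr-1* mutants *mut-16* (0.36 ± 0.04, adjusted p = 1.2e-05) and *nyn-2* (0.28 ± 0.08, adjusted p = 0.0117) rose and *mut-14* (-0.35 ± 0.04, adjusted p = 1.0e-05) and *mut-15* (-0.14 ± 0.04, adjusted p = 0.0125) fell, where 45.8% of all genes passed. The difference between the strains was itself tested, and 7 genes had a higher small RNA change in *simr-1* mutants, where 44.3% of all genes differed and 23.7% differed upward. It was 1.12 ± 0.06 (adjusted p = 6.6e-11) for *mut-14*, 1.10 ± 0.06 (adjusted p = 9.4e-11) for *mut-7*, 1.09 ± 0.09 (adjusted p = 8.4e-09) for *mut-8*, 1.07 ± 0.08 (adjusted p = 1.6e-09) for *nyn-1*, 1.05 ± 0.07 (adjusted p = 1.3e-09) for *mut-16*, 0.77 ± 0.08 (adjusted p = 2.8e-07) for *mut-15* and 0.42 ± 0.13 (adjusted p = 0.0142) for *nyn-2*.

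mRNA of the complex fell in wild-type animals over the same step. Of the 9 genes, 7 fell and *nyn-1* rose (0.31 ± 0.07, adjusted p = 9.1e-04), where 74.1% of all genes passed and 31.4% passed downward, and the median log2 change was -0.39 over the 9 genes and 0.28 over all genes. The falls were -0.88 ± 0.07 (adjusted p = 6.7e-09) for *mut-8*, -0.56 ± 0.07 (adjusted p = 2.3e-06) for *mut-2*, -0.50 ± 0.07 (adjusted p = 6.9e-06) for *mut-14*, -0.48 ± 0.08 (adjusted p = 4.7e-05) for *mut-16*, -0.39 ± 0.07 (adjusted p = 7.0e-05) for *nyn-2*, -0.35 ± 0.07 (adjusted p = 4.4e-04) for *mut-7* and -0.24 ± 0.07 (adjusted p = 0.00514) for *rde-8*. In *simr-1* mutants the changes were smaller, with *mut-8* (-0.26 ± 0.06, adjusted p = 0.00332), *mut-2* (-0.18 ± 0.07, adjusted p = 0.0431) and *rde-8* (-0.17 ± 0.06, adjusted p = 0.0343) down and *nyn-2* (0.26 ± 0.06, adjusted p = 0.00109) and *nyn-1* (0.18 ± 0.07, adjusted p = 0.0389) up, where 43.2% of all genes passed. Without the second *simr-1* library of generation 1, which was high for *mut-16*, 3 of the 9 passed. The strains differed for 6 genes, all with the higher change in *simr-1* mutants, where 50.8% of all genes differed and 25.9% differed upward. The difference was 0.74 ± 0.09 (adjusted p = 2.0e-07) for *nyn-2*, 0.72 ± 0.10 (adjusted p = 1.3e-06) for *mut-8*, 0.63 ± 0.14 (adjusted p = 5.9e-04) for *mut-16*, 0.47 ± 0.10 (adjusted p = 5.6e-04) for *mut-2*, 0.45 ± 0.09 (adjusted p = 2.4e-04) for *mut-14* and 0.42 ± 0.10 (adjusted p = 0.00164) for *mut-7*, and each of the 6 held whichever library was left out.

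Between generation 10 and generation 1 at 25°C, 1 gene of the complex passed for small RNAs in each strain. In wild-type animals *rde-8* small RNAs fell (-0.41 ± 0.15, adjusted p = 0.0413) and no other gene of the 9 passed, where 46.2% of all genes passed. That fall passed in 1 of the 4 fits that left out a library, and it did not hold its sign when scaled to mapped reads (0.25, adjusted p = 0.19). In RPM both libraries of generation 10 exceeded both of generation 1 for all 9 genes, *rde-8* among them, and the share of all genes that did so is not given here. Scaled to mapped reads the other 8 rose, while the median over all genes was 0.63. In *simr-1* mutants *mut-15* small RNAs fell (-0.18 ± 0.05, adjusted p = 0.0293) and no other gene passed (20.7% of all genes), and scaled to mapped reads 8 fell while the median over all genes was -0.17. In wild-type animals *nyn-2* (0.56 ± 0.07, adjusted p = 2.8e-06) and *mut-8* (0.23 ± 0.06, adjusted p = 0.00406) mRNA rose and that of *nyn-1* (-0.42 ± 0.07, adjusted p = 4.8e-05), *mut-7* (-0.34 ± 0.06, adjusted p = 7.3e-05), *mut-15* (-0.20 ± 0.07, adjusted p = 0.0137) and *rde-8* (-0.19 ± 0.07, adjusted p = 0.0238) fell, where 65.8% of all genes passed. In *simr-1* mutants *rde-8* (-0.34 ± 0.07, adjusted p = 0.00104), *mut-2* (-0.20 ± 0.07, adjusted p = 0.0277) and *nyn-1* (-0.18 ± 0.07, adjusted p = 0.0441) mRNA fell (43.4% of all genes passed), and in a fit of all 10 groups 6 of the 9 fell. *mut-16* mRNA in that comparison stood at 0.22 ± 0.10 (adjusted p = 0.0757), and at 0.40 (adjusted p = 8.5e-05) without the second library of generation 1.

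The *simr-1* effect on small RNAs was lower in generation 10 than in generation 1 for 6 of the 9 genes, where 38.6% of all genes differed and 28.2% differed downward, with a median over all genes of -0.28. For *nyn-2* the effect turned from a rise in generation 1 to a fall in generation 10. The difference was -0.64 ± 0.13 (adjusted p = 6.3e-04) for *nyn-2*, -0.58 ± 0.13 (adjusted p = 0.0012) for *mut-8*, -0.52 ± 0.10 (adjusted p = 5.3e-04) for *mut-15*, -0.47 ± 0.09 (adjusted p = 2.2e-04) for *mut-7*, -0.44 ± 0.10 (adjusted p = 0.00118) for *mut-16* and -0.37 ± 0.09 (adjusted p = 0.00296) for *mut-14*. With edgeR's own expression filter, which also changes the scaling, none of them passed and the 9 differences lay between -0.30 and 0.29, and 1 to 6 passed when a library was left out. For mRNA the effect was lower in generation 10 for *nyn-2* (-0.50 ± 0.10, adjusted p = 1.2e-04) and *mut-8* (-0.21 ± 0.08, adjusted p = 0.0451) and higher for *mut-7* (0.26 ± 0.09, adjusted p = 0.0258) and *nyn-1* (0.26 ± 0.10, adjusted p = 0.0345), where 44.9% of all genes differed. Only *nyn-2* held whichever library was left out.

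Markers of other tissues also moved between these whole animals, in generation 1 mostly in the same direction as the *mutator* genes for the germline. Less germline tissue and less RNA per germ cell cannot be told apart in such libraries. The mRNA of 6 oocyte genes (*oma-1*, *oma-2*, *puf-5*, *rme-2*, *egg-1* and *cbd-1*) summed to 7749 to 8085 CPM in *simr-1* mutants and 1450 to 1789 CPM in wild-type animals in generation 1, and to 7038 to 7418 CPM in *simr-1* mutants and 6896 to 8736 CPM in wild-type animals at 20°C. All 6 rose in *simr-1* mutants in generation 1, with a median log2 change of 2.30, and none was at 0 in any library. The mRNA of 8 germline genes summed to 3360 to 3680 CPM in *simr-1* mutants and 2193 to 2307 CPM in wild-type animals in generation 1, where 6 rose, *htp-3* did not pass (0.04) and *syp-1*, of the synaptonemal complex, fell (-0.51, adjusted p = 6.0e-07). Small RNAs on these 8 genes (*glh-1*, *glh-2*, *pgl-1*, *pgl-3*, *gld-1*, *syp-1*, *him-3* and *htp-3*) summed to 1434 to 1454 RPM in *simr-1* mutants and 401 to 413 RPM in wild-type animals in generation 1, and to 2157 to 2163 RPM in *simr-1* mutants and 2259 to 2298 RPM in wild-type animals at 20°C. All 8 rose in generation 1 with a median log2 change of 1.39, and all 8 fell in wild-type animals between 20°C and generation 1, with a median of -1.57. In generation 2 the oocyte sum was 2530 to 3354 CPM in *simr-1* mutants and 1438 to 2472 CPM in wild-type animals, the germline small RNA sum was 596 to 729 RPM in *simr-1* mutants and 348 to 383 RPM in wild-type animals, and the *mutator* genes were at their lowest in both strains. In generation 7 the oocyte sum was 6509 to 6986 CPM in *simr-1* mutants and 7866 to 8971 CPM in wild-type animals, and in generation 10 it was 6582 to 6980 CPM in *simr-1* mutants and 5934 to 6046 CPM in wild-type animals. The directions were thus not shared everywhere, since at 20°C the germline small RNA sum was the lower one in *simr-1* mutants and the *mutator* sum the higher one, and in generation 7 the oocyte sum was the lower one in *simr-1* mutants while small RNAs on 4 *mutator* genes rose. The mRNA of 6 sperm genes (*spe-9*, *spe-11*, *spe-41*, *gsp-3*, *gsp-4* and *fer-1*) was low, with sums of 8.60 to 11.4 CPM in *simr-1* mutants and 11.1 to 15.6 CPM in wild-type animals in generation 1 and 45.1 to 58.8 CPM in *simr-1* mutants and 11.8 to 13.5 CPM in wild-type animals in generation 2. In generation 7 the sperm sum was 20.9 to 26.4 CPM in *simr-1* mutants and 7.94 to 9.57 CPM in wild-type animals, and in generation 10 it was 30.4 to 33.45 CPM in *simr-1* mutants and 9.56 to 14.1 CPM in wild-type animals. In each of generations 2, 7 and 10, 5 of the 6 rose. Body muscle genes had lower sums in *simr-1* mutants in generation 1, with *unc-54*, *myo-3*, *unc-15* and *act-4* mRNA at a summed 1052 to 1263 CPM in *simr-1* mutants and 2202 to 2757 CPM in wild-type animals. Sums over 4 intestine genes were 14595 to 18223 CPM in *simr-1* mutants and 21084 to 28429 CPM in wild-type animals. Those over 4 neuron genes were 184 to 229 CPM and 262 to 274 CPM. The sum over 3 hypodermis genes went the other way, at 274 to 451 CPM in *simr-1* mutants and 110 to 142 CPM in wild-type animals. Of these *col-19* rose (1.49), *dpy-7* fell (-1.43) and *rol-6* did not pass (-0.33). The part of germline, sperm and somatic content in the changes of the *mutator* genes was not tested.

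Genes with a like mRNA profile over the 10 groups were sought among all others. Among 7825 genes averaging 10 CPM or more, those closest to the mean profile of the 9 genes were *mes-2* (Pearson r = 0.995), *wht-7* (0.995), C50E3.5 (0.993), *mtcu-2* (0.993) and ZK616.5 (0.991). *mes-2* encodes a histone methyltransferase of germline chromatin. *mut-16* had its own nearest genes, *mrck-1* (0.988), *let-765* (0.986), *dpy-28* (0.984), *pqe-1* (0.983) and *npp-3* (0.982). Within a gene, mRNA and small RNA group means correlated at 0.93 for *mut-2*, 0.87 for *mut-8*, 0.85 for *mut-14*, 0.83 for *nyn-2* and 0.75 for *rde-8*, at 0.55 for *mut-7* and 0.51 for *mut-15*, and at 0.33 for *mut-16* and -0.01 for *nyn-1*. These values describe 10 group means that share strain and temperature.

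Other genes of small RNA amplification were described next, from a list of 20 that holds the RNA-dependent RNA polymerases *rrf-1* and *ego-1* and their cofactors, Argonautes such as *wago-1* and *hrde-1*, and further factors of the pathway. At 20°C 1 of the 20 rose and 9 fell in *simr-1* mutants at the mRNA level, with a median log2 change of -0.25 against 0.02 over all genes. In generation 1, 16 rose and 1 fell, with a median of 0.58 against -0.15 over all genes, and *hrde-1* (1.51), *wago-1* (1.48), *rde-11* (1.43), *rde-4* (1.19) and *ergo-1* (1.15) passed 2-fold. In generation 2, 3 rose and 6 fell, in generation 7 1 rose and none fell, and in generation 10 all 20 rose, with a median of 0.35 against -0.07 over all genes. The share of all genes that passed was 22.1% at 20°C. In generations 1, 2, 7 and 10 it was 68.5%, 42.8%, 27.1% and 46.2%, with 20.9% upward in generation 10. The count on the list was near that share in generation 2 and below it in generation 7. In wild-type animals 18 of the 20 fell between 20°C and generation 1, with a median of -0.55, and *hrde-1* (-1.72), *wago-1* (-1.54), *rde-4* (-1.24), *rde-11* (-1.06), *ergo-1* (-1.04) and *hpo-40* (-1.02) passed 2-fold, as 41.1% of all genes did. Of all genes 74.1% passed over that step and 31.4% passed downward, with a median of 0.28. Small RNAs on the list rose for 17 genes and fell for 1 in generation 1, with a median log2 change of 1.09, close to the 1.05 of the *mutator* genes. Of all genes 69.7% passed and 35.7% passed upward, with a median of -0.10. The rises past 2-fold were on *hrde-1* (1.80), *znfx-1* (1.57), *wago-1* (1.54), *rde-4* (1.45), *wago-4* (1.42), *ego-1* (1.37), *rde-1* (1.29), *prg-1* (1.28), *drh-3* (1.22), *math-33* (1.14) and *rsd-6* (1.03), and 47.9% of all genes passed 2-fold in either direction. The gene that fell was *rde-11*, which encodes a RING-type zinc finger protein that acts with RDE-10. Its small RNAs were lower in *simr-1* mutants in all 5 conditions, by log2 changes of -1.11 at 20°C and -1.07, -1.19, -1.48 and -1.61 in generations 1, 2, 7 and 10.

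Single small RNA libraries of 13 mutant strains and 1 wild-type culture at 20°C show the complex in its own mutants. With 1 library per strain there is no test. Ratios to the single wild-type library are given in RPM with the exact 95% interval for a ratio of Poisson counts, which covers counting error only. In the *mut-16(pk710)* library, *mut-16* small RNAs were at 0.693 of the wild-type level (interval 0.623 to 0.768), from 86.5 RPM in the mutant and 125 RPM in the wild-type library. Those on *mut-7* and *nyn-1* were at 1.97 (1.89 to 2.06) and 1.98 (1.84 to 2.12), and those on *mut-14* and *mut-8* at 1.84 (1.75 to 1.93) and 1.70 (1.56 to 1.86). None of the 9 genes was at 0.5 or less (with a pseudocount of 0.5 RPM), where 28.3% of the 6689 genes at 10 RPM or more in the wild-type library were. The median ratio was 1.39 over the 9 genes and 1.36 over those 6689.

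The *rde-8(tm2252)* library held more small RNAs on its own gene, with 35.6 RPM in the mutant and 20.1 RPM in the wild-type library, a ratio of 1.77 (1.5 to 2.08). *mut-2* was the lowest of the 9 genes in it at 0.780 (0.633 to 0.96), and none was at 0.5 or less, where 19.2% of the 6689 genes were. In the double mutant of *nyn-2(tm4844)* and *nyn-1(tm5004)*, 19 counts remained on *nyn-1*, 3.58 RPM against 105 RPM in the wild-type library and a ratio of 0.0341 (0.0205 to 0.0533). *nyn-2* small RNAs in the same library went the other way, with 70.7 RPM in the mutant and 38.5 RPM in the wild-type library, a ratio of 1.84 (1.64 to 2.04). *nyn-1* was the only one of the 9 genes at 0.5 or less there, where 22% of the 6689 genes were. Whether these alleles remove the counted exons is not given in the sources used here.

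The remaining strains changed the 9 genes together or hardly at all. The share of all genes that lay above or below the 3 wild-type libraries is not given here. In *wago-1(tm1414)* 8 of the 9 genes lay above all 3 wild-type libraries of 20°C, at a median ratio of 1.47, where the median of all 6689 genes was 1.39. In *math-33(ok2974)* all 9 lay below the 3 wild-type libraries, 7 of them at 0.5 or less, at a median of 0.463, where the median of all genes was 0.516 and 45.8% of them were at 0.5 or less. Small RNAs on the 8 germline genes summed to 663 RPM in that library, against 1616 RPM in the wild-type library, and their part in the low values was not tested. In C33G3.6(cmp44) 8 lay below, 1 of them, *mut-14*, at 0.5 or less (0.491), where 10.1% of all genes were. The median was 0.684 over the 9 genes and 0.771 over all genes. Among those below, the Poisson intervals of *rde-8* (0.952, 0.770 to 1.17) and *nyn-2* (0.971, 0.836 to 1.12) included 1. In that library small RNAs on the 8 germline genes summed to 692 RPM, against 1616 RPM in the wild-type library, and those on 4 intestine genes to 91.5 RPM, against 11.1 RPM, and their part in the low values was not tested. In *simr-1(cmp36)* 6 lay above and none below, at a median of 1.30, while in the *hpo-40; simr-1* double mutant 7 lay within the range of the 3 wild-type libraries, and in *rsd-2(pk3307)* 5 lay above. In *hpo-40(cmp46)*, *hgo-1(tm4989)*, F37C4.5(ok3454) and Y57G11C.3(cmp47) between 4 and 6 lay within the wild-type range. Their medians were 1.01 to 1.12, where those of all genes were 1.02 to 1.06. No gene of the complex reached a 2-fold higher level in any of the 13 strains. Of all 6689 genes, 13.6% did in *mut-16(pk710)* and 0.538% to 5.55% did in the other strains.

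**Figure D4:**
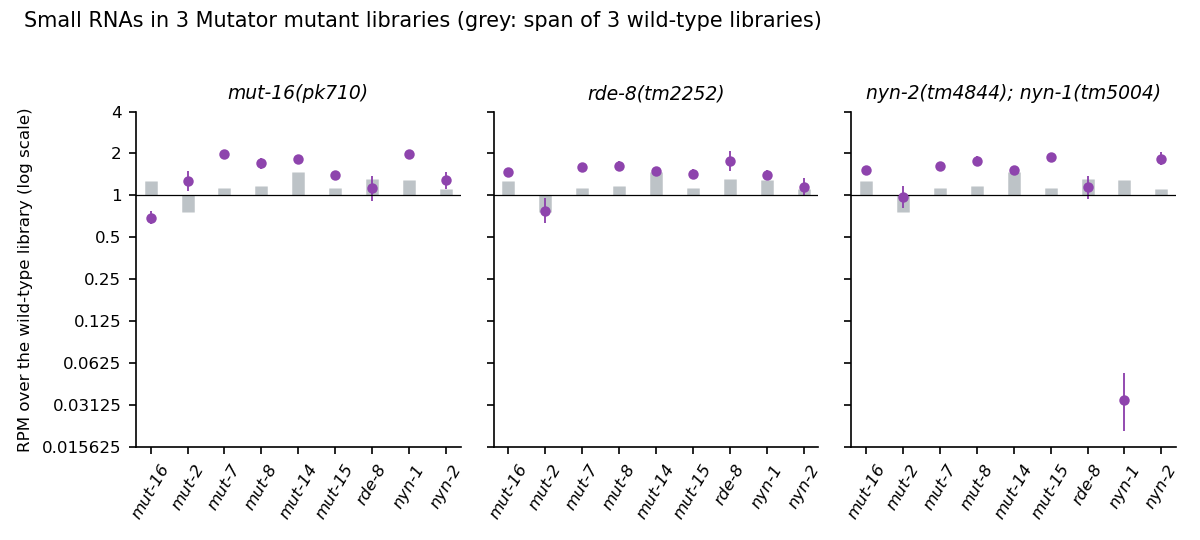
Small RNA level of each *mutator* complex gene in the *mut-16*, *rde-8* and *nyn-1; nyn-2* libraries over the single wild-type library (log axis). There is 1 point per gene, with exact Poisson intervals as bars and a grey span for the wild-type libraries. *nyn-1* in the *nyn-1; nyn-2* library is the 1 point far below the rest, at 0.0341.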

How the data were processed

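Day 1 adults were profiled by small RNA and mRNA sequencing. For small RNAs the authors clipped adapters, filtered reads by quality, aligned them with Bowtie2 against genome release WS258 and assigned them to exons with featureCounts, dividing reads between genes where needed and leaving out miRNAs and piRNAs. For mRNA the authors used Cutadapt, HISAT2 and Salmon, and whether HISAT2 or Salmon gave the table is not given in the sources used here. Deposited values of both kinds are expected counts without normalization, and 91.8% to 97.0% of them were whole numbers. Bowtie2 places a read that fits several loci at 1 of them, which bears on *mut-14* and ZC317.1.

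Repeated names in the mRNA tables were summed (46970 lines, 45904 names), and counts were rounded and tested with edgeR 4.0.16 (R 4.3.3), TMM normalization and the quasi-likelihood test, over genes whose counts in the libraries compared summed to 10 or more, in 11 comparisons per assay with only the compared groups in the fit and no replicate block. RPM was computed with the mapped read totals the study gives. The *simr-1* effect was compared between conditions by an interaction term. Groups, replicate numbers and generations came from the sample labels. Alternatives were DESeq2 1.42.0, its size factors, scaling to library size (mapped reads for small RNAs), other count filters, all 10 groups in one fit, a replicate block and leaving out each library. For single libraries these were other scalings, another wild-type control and a pseudocount of 0.05 RPM in place of 0.5. Scripts were tested on simulated counts.

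Replicate numbers were taken to pair samples where the deviations of every same-numbered pair of libraries correlated above 0.1 over 7825 genes, with 3 pairs. This held for mRNA in generations 7 (0.41, 0.47 and 0.65) and 10 (0.23, 0.104 and 0.31) and in no other mRNA comparison. Small RNA groups have 2 libraries, so their 2 pairs give the same value. This value was above 0.1 between the strains in generations 2 (0.374) and 7 (0.147) and was not taken as pairing. The members and all gene lists were chosen with earlier results of these data known. All 9 members are named, other genes of the pathway where they passed 2-fold, and the 5 genes most like *mut-16* and most like the mean of the 9 members by Pearson r.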

Additional observations from a re-analysis of the deposited data

Results flagged for a closer look

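For 23 results the *simr-1* effect on a *mutator* gene differed between 2 conditions by a test of the difference itself (edgeR's interaction term, adjusted p at most 0.05), and each is given here as the log2 difference of the effects. Between generation 1 at 25°C and 20°C, the small RNA effect was higher in generation 1 by 1.12 for *mut-14*, 1.10 for *mut-7*, 1.09 for *mut-8*, 1.07 for *nyn-1*, 1.05 for *mut-16*, 0.77 for *mut-15* and 0.42 for *nyn-2*. The mRNA effect was higher in generation 1 by 0.74 for *nyn-2*, 0.72 for *mut-8*, 0.63 for *mut-16*, 0.47 for *mut-2*, 0.45 for *mut-14* and 0.42 for *mut-7*. Of all genes, 44.3% differed for small RNAs (23.7% upward) and 50.8% for mRNA (25.9% upward).

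Between generation 10 and generation 1, the small RNA difference was -0.64 for *nyn-2*, -0.58 for *mut-8*, -0.52 for *mut-15*, -0.47 for *mut-7*, -0.44 for *mut-16* and -0.37 for *mut-14*. Of all genes 38.6% differed there and 28.2% differed downward, with a median of -0.28. With edgeR's own expression filter none of these small RNA differences passed. The mRNA difference was -0.50 for *nyn-2*, -0.21 for *mut-8*, 0.26 for *mut-7* and 0.26 for *nyn-1*, where 44.9% of all genes differed. Of these mRNA differences, only that of *nyn-2* held whichever library was left out. Groups hold 2 or 3 libraries, too few to test a single library against its group. In wild-type animals of generation 1 the summed oocyte mRNA was 1450 to 1789 CPM, against 6896 to 8736 CPM at 20°C, and its part in these differences was not tested.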

How the results depend on the processing

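The counts of *mutator* genes that passed stayed within 1.5 times in most alternatives, with these exceptions. For mRNA in generation 7, where 1 gene passed, 2 passed with library size scaling, 6 with all 10 groups in one fit, 3 with the replicate block and 5 without the libraries high for *mut-16*, an alternative chosen after seeing the data. For mRNA of *simr-1* mutants in generation 1 against 20°C, where 5 passed, 3 passed with library size scaling, 2 with all groups in one fit, 3 with the replicate block and 3 without the library high for *mut-16*. For mRNA of *simr-1* mutants in generation 10 against generation 1, where 3 passed, 6 passed with all groups in one fit. Small RNA counts at 20°C were 0 with DESeq2 and 1 with edgeR's own expression filter, against 2. For small RNAs of *simr-1* mutants in generation 1 against 20°C, 2 passed with DESeq2, against 4. For small RNAs in generation 10 against generation 1, wild-type animals had 0 with DESeq2, 2 with its size factors, 8 with mapped-read scaling, 2 with no count minimum and 6 with all groups in one fit, against 1, and *simr-1* mutants had 0 with DESeq2, 8 with mapped-read scaling and 3 with all groups in one fit, against 1. The change of the small RNA effect between generations 10 and 1 kept 0 of 6 genes with edgeR's filter. In each DESeq2 case where 0 passed, 0 of the 9 genes had an unadjusted p of at most 0.05. In the case where edgeR's filter kept 0, 1 of the 9 did, and the cause was not tested.

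Leaving out 1 library moved the counts over these ranges: mRNA at 20°C 2 to 5 (6 with all libraries), in generation 2 3 to 7 (5), *simr-1* generation 1 against 20°C 2 to 4 (5) and generation 10 against 1 1 to 4 (3), the mRNA effect of generation 10 against 1 1 to 4 (4), and for small RNAs at 20°C 0 to 4 (2), in generation 7 3 to 4 (5), *simr-1* generation 1 against 20°C 3 to 6 (4), generation 10 against 1 0 to 1 in both strains (1) and the effect of generation 10 against 1 1 to 6 (6). Sign changes occurred for small RNAs: *mut-2* in generation 7 with all groups in one fit (0.036), *mut-14* at 20°C with ZC317.1 counts added (-0.10), and with mapped-read scaling *mut-2* (-0.72) and *nyn-2* (-0.79) in wild-type generation 1 against 20°C, *mut-2* (0.39), *mut-14* (0.65), *rde-8* (0.25) and *nyn-1* (0.56) in wild-type generation 10 against 1, where all groups in one fit gave *mut-14* 0.19, and *mut-16* (-0.14) in *simr-1* generation 10 against 1.

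Over all genes, the 3232 that passed for mRNA at 20°C became 2105 and 1691 without the first or the third *simr-1* library, and the 4578 of generation 7 became 2454 and 2601 without the first or the second *simr-1* library and 7084 without both libraries high for *mut-16*. With DESeq2 the small RNA counts over all genes were 3183 at 20°C (5196 with edgeR), 4632 in generation 7 (6994), 3966 for *simr-1* generation 1 against 20°C (7002), 3614 and 1529 for generation 10 against 1 in wild-type animals and *simr-1* mutants (6487 and 2815, the second of them 4557 with mapped-read scaling), and 3830 for the effect of generation 10 against 1 (6154, with 4048 under edgeR's filter and 3833 to 4075 without either wild-type library of generation 1 or the first *simr-1* library of generation 10). Outside generations 7 and 10 of mRNA the replicate numbers were not taken to pair libraries, although small RNAs of generations 2 and 7 correlated above 0.1. Over all comparisons the correlations ran over -0.27 to 0.66 for mRNA and -0.16 to 0.37 for small RNAs. A crossed pairing of the small RNA libraries of generation 10 left 7 genes passing, as without a block. No alternative changed the number of *mutator* genes at 0.5 or less in the *mut-16*, *rde-8* and *nyn-1; nyn-2* libraries (0, 0 and 1), while TMM scaling lowered their median ratios to 1.06, 1.23 and 1.24. With 2 libraries per group, small RNA changes of *mut-2* and *rde-8*, at 8.98 to 30.7 RPM, were the least precise.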
